A study of Homo sapiens with 4 samples.

Results

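The genes described here are 10 of the 26255 gene symbols in the table. They were chosen by name as granins, prohormone processing enzymes, a synuclein and nestin. They were picked with earlier results of these data in view, because CHGB and SNCG were lower and NES higher in the acinar tumor and VGF was higher in the mix culture, so both contrasts below are descriptions of the genes and not evidence for the choice. The cells are A549, an established human lung adenocarcinoma line. RNA was sequenced from 4 libraries, 1 for each group: A549 cells laser-microdissected from solid-type areas (Solid) and from acinar-type areas (Acinar) of xenograft tumors in immunodeficient mice, and GFP-labelled A549 cells sorted from 3D colonies grown without (Single_culture) or with (Mix_culture) cancer-associated fibroblasts, called CAFs. The mix title was read as the culture with CAFs, since that is the only other culture condition the labels describe. The labels do not give the source of the CAFs, the number or age of the mice, the time in culture, or whether both tumor areas came from 1 mouse. With no replicate library, each difference below is one between libraries and carries no p-value.

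Granins (chromogranins and secretogranins) are acidic proteins that condense inside dense-core granules, the storage vesicles of endocrine cells and neurons, and they are cut into peptides there. The prohormone convertases make the cuts after pairs of basic residues, and carboxypeptidase E trims the basic residues that remain. In the lung these genes are best known from neuroendocrine cells and neuroendocrine tumors, whereas A549 is an adenocarcinoma line. γ-Synuclein, the product of SNCG, is a small soluble protein of neurons that some carcinomas also make, and nestin, the product of NES, is an intermediate filament protein of neural progenitors that assembles with vimentin.

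Levels are given as scaled counts, which are the deposited size-factor-scaled fragment values divided by 1 constant common to all libraries. The estimated depth was 7270000 fragments in Solid, 6630000 in Acinar, 10970000 in Single_culture and 12180000 in Mix_culture, and 1 fragment was worth between 0.0805 and 0.155 scaled counts. All 10 genes had whole fragment numbers in all 4 libraries. The epithelial markers fixed for the check (EPCAM, KRT8, KRT18, KRT19, CDH1 and KRT7) summed to between 4715 and 11993 scaled counts. Several defining regulators of neuroendocrine cells were not detected, with NEUROD1, INSM1, NKX2-2 and POU3F2 listed at 0 in every library. The genes described here are therefore named for the products they encode, not for a neuroendocrine cell type. The levels are averages over many cells, in which fewer expressing cells and less RNA per cell cannot be told apart.

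The cyclic AMP response element, TGACGTCA, is a known binding sequence of the CREB family of transcription factors. It was searched for in RefSeq promoter windows (250 bases before to 50 after each start, build GRCh38.p14), which held 8 of the 10 genes. CHGB and SCG2 had no entry. The motif reads the same on both strands. It was present in a window of 3 of the 8 genes, CHGA, VGF and PCSK1, and in 2.25% of the 27305 genes with a window. The 120 bases upstream of the start are shown for these 3, with the motif in capitals.
VGF, chr7:101165570-101165689, minus strand: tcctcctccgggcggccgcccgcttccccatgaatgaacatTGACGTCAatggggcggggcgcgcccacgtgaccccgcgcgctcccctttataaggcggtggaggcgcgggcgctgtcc
PCSK1, chr5:96433249-96433368, minus strand: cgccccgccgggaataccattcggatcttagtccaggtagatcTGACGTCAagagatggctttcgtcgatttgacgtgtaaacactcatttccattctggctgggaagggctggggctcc
CHGA, chr14:92923030-92923149, plus strand: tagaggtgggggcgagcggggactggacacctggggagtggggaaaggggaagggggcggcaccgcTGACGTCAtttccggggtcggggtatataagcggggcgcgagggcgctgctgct
The motif lay 79 to 72 bases before the start in VGF, 77 to 70 in PCSK1 and 54 to 47 in CHGA. The shorter core TGACG, which the full motif contains, was found on either strand in a window of all 8 genes and of 28.4% of all genes. A match describes these letters and is not a bound site.

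CHGB encodes chromogranin B, a major matrix protein of dense-core granules. Its level was 179 scaled counts in Solid, 13.3 in Acinar, 41.1 in Single_culture and 20.9 in Mix_culture. Solid was thus the high library, 13.4-fold above Acinar (95% counting interval 10.8 to 16.9) and 4.36-fold above Single_culture (3.91 to 4.86). Single_culture was in turn 1.97-fold above Mix_culture (1.69 to 2.30) and Mix_culture 1.57-fold above Acinar (1.23 to 2.03), so all neighbours in the order Solid, Single_culture, Mix_culture, Acinar differed beyond counting error. Among 13979 genes compared between the tumors, 3 had a lower Acinar ratio than CHGB. Between the cultures, 282 of 13485 genes had a lower Mix_culture ratio.

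SNCG had the same order of libraries as CHGB. It was at 44.3 scaled counts in Solid, 4.65 in Acinar, 11.3 in Single_culture and 8.13 in Mix_culture. Solid was 9.53-fold above Acinar (6.54 to 14.4) and 3.93-fold above Single_culture (3.19 to 4.86). Single_culture was 1.39-fold above Mix_culture (1.06 to 1.82), and Mix_culture 1.75-fold above Acinar (1.15 to 2.72). Every step of that order exceeded counting error, the culture step being the narrowest.

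NES ran the other way. Nestin RNA was at 2.24 scaled counts in Solid, 21.4 in Acinar, 4.71 in Single_culture and 7.89 in Mix_culture. Acinar was the high library, 9.56-fold above Solid (5.68 to 17.2) on 138 against 16 fragments, and 2.71-fold above Mix_culture (2.08 to 3.55). Mix_culture was 1.68-fold above Single_culture (1.19 to 2.39), and Single_culture 2.11-fold above Solid (1.19 to 3.95). The order of the libraries was thus the reverse of that of CHGB and SNCG.

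Acinar against Solid and Mix_culture against Single_culture share no library. Of the 6 genes measured in both pairs, 4 (CHGB, SNCG, CPE and NES) had ratios of the same sign in both and 2 (SCG2 and PCSK1) of opposite sign, both of the latter within counting error in the tumors. VGF, which did not reach 1 scaled count in either tumor, was also lower in Acinar and higher in Mix_culture. The share of all genes with the same sign in both pairs was not taken, and CHGB, SNCG and NES were picked for their tumor ratios. Nothing is therefore read from this count. The 242 genes 2-fold or more lower in Acinar and measured in both pairs had a ratio below 0 in the mix culture in 68.6% of cases, against 47.5% of all 12903 genes measured in both. The 177 genes 2-fold or more higher in Acinar had a ratio above 0 in the mix culture in 49.2%, against 52.5% of all.

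**Figure D1:**
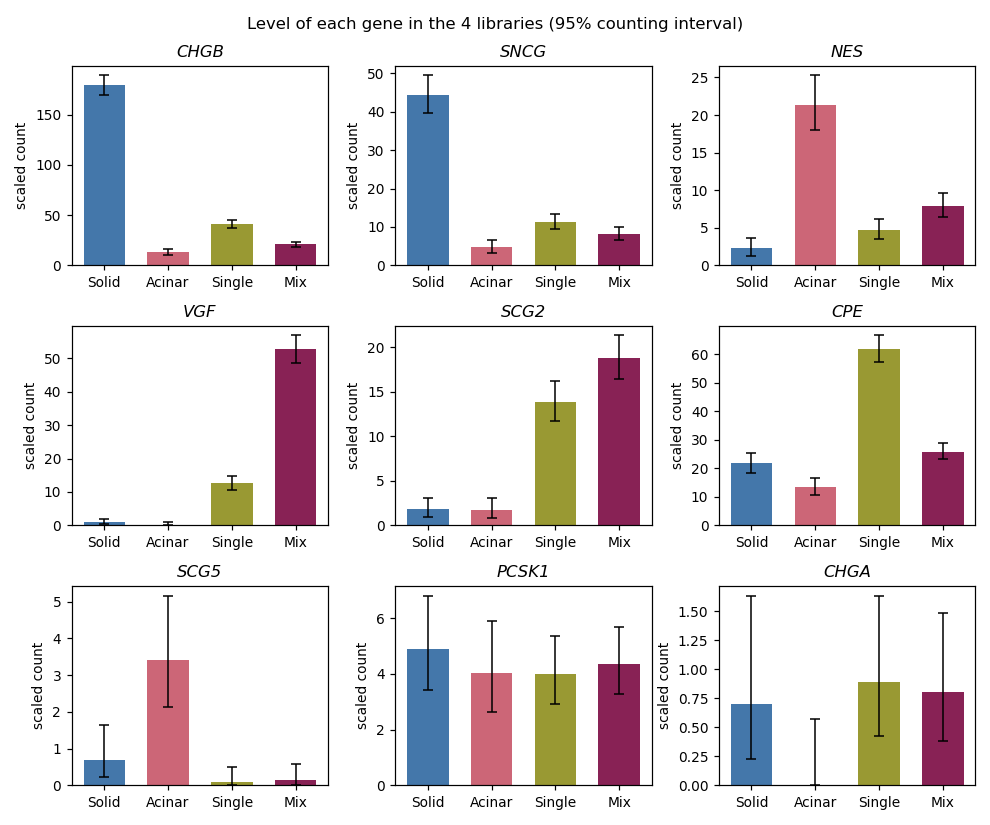
Scaled counts (vertical axes, linear, each from 0) of 9 of the 10 genes in the solid tumor, acinar tumor, single culture and mix culture libraries; bars are the 1 library of each group and error bars are exact 95% Poisson counting intervals, not replicate error. CHGB and SNCG were highest in Solid (179 and 44.3) and NES in Acinar (21.4), VGF and SCG2 stood above both tumors in both cultures, and PCSK1 lay between 3.999 and 4.89 throughout; PCSK2, listed at 0 in every library, is left out.

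The other granins had patterns of their own. VGF, which encodes a granin-related prohormone first found as a gene induced by nerve growth factor, was at 0.979 scaled counts in Solid, 0.155 in Acinar, 12.6 in Single_culture and 52.7 in Mix_culture. The tumor values rest on 7 fragments and 1 fragment, and their ratio, 6.31-fold lower in Acinar, had an interval that included no difference (0.811 to 284.6). Between the cultures VGF was 4.17-fold higher with CAFs (3.47 to 5.04), and 8 of the 13485 genes compared had a higher ratio. Single_culture was 12.9-fold above Solid (6.10 to 32.6), so both cultures stood above both tumors.

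SCG2, encoding secretogranin II, the precursor of the peptide secretoneurin, shared with VGF the gap between cultures and tumors. It was at 1.82 scaled counts in Solid, 1.71 in Acinar, 13.9 in Single_culture and 18.8 in Mix_culture. The tumor libraries did not differ beyond counting error (1.07-fold, 0.441 to 2.63, on 13 and 11 fragments). Mix_culture was 1.35-fold above Single_culture (1.10 to 1.67), a smaller difference than that of VGF, and Single_culture was 7.63-fold above Solid (4.33 to 14.6). Over all 14561 genes measured in any library, 8.22% had both cultures 2-fold or more above both tumors, as did 2 of the 8 genes measured here, SCG2 and VGF. None of the 8 had both tumors 2-fold or more above both cultures, where 9.67% of all genes did. The tumor cells were microdissected and the cultured cells sorted, so growth setting and preparation cannot be told apart.

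CHGA, the gene of chromogranin A, the standard serum and tissue marker of neuroendocrine tumors, was close to the limit of detection. It had 5 fragments in Solid, 0 in Acinar and 10 in each culture, or 0.699, 0, 0.889 and 0.805 scaled counts. The upper limit that 0 fragments allow (3 fragments, the one-sided limit for a count of 0) was 0.465 scaled counts in Acinar, and the counting interval of Solid over Acinar, from 0.827 upward, included no difference. CHGA and CHGB therefore differed by far in level: per kilobase of the longest coding transcript in GENCODE 29, a length the authors may not have used, CHGB was at 70.3 scaled counts in Solid and CHGA at 0.339.

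SCG5 encodes 7B2, a granin-like chaperone and inhibitor of the convertase PC2. It had 5 fragments in Solid, 22 in Acinar, 1 in Single_culture and 2 in Mix_culture, which are 0.699, 3.41, 0.0889 and 0.161 scaled counts. Acinar was the high library, 4.88-fold above Solid (1.80 to 16.5). On the log2(value + 1) scale SCG5 was past 2-fold, but not with a pseudocount of 5, and a filter of 5 scaled counts removed it. The other 3 libraries, taken as neighbours in their order, did not differ beyond counting error. PCSK2, the gene of PC2 itself, was listed at 0 in all 4 libraries, which by the same limit of 3 fragments allows up to 0.420, 0.465, 0.267 and 0.242 scaled counts in Solid, Acinar, Single_culture and Mix_culture.

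Among the processing enzymes, PCSK1 was the flattest gene and CPE was highest in Single_culture. PCSK1 encodes the convertase PC1/3 and was at 4.89 scaled counts in Solid, 4.03 in Acinar, 3.999 in Single_culture and 4.35 in Mix_culture. No pair of libraries differed beyond counting error. Acinar and Solid were within 1.21-fold (interval of Solid over Acinar 0.710 to 2.10) and the cultures within 1.09-fold (interval of Mix_culture over Single_culture 0.718 to 1.65). CPE, the gene of carboxypeptidase E, was at 21.7 scaled counts in Solid, 13.5 in Acinar, 61.8 in Single_culture and 25.8 in Mix_culture. Single_culture was the high library, 2.39-fold above Mix_culture (2.09 to 2.74), while Mix_culture and Solid did not differ beyond counting error (1.19-fold, 0.981 to 1.45). Acinar was lowest, 1.61-fold below Solid (1.23 to 2.11).

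Counted together, 7 of the 10 genes reached 1 scaled count in a tumor library, and 2 of them (NES and SCG5) were 2-fold or more higher in Acinar on the log2(value + 1) scale, as were 1.98% of 13979 genes. Another 2 (CHGB and SNCG) were 2-fold or more lower, as were 2.55% of all. In the cultures 7 were measured, with VGF 2-fold or more higher in Mix_culture (0.682% of 13485 genes) and CPE 2-fold or more lower (1.74%). The counting interval of the ratio left out no difference for 5 of the 7 between the tumors and 6 of the 7 between the cultures, against 35.2% and 43.8% of all measured genes of whole fragments. Nothing is read from these shares, since the contrasts were used in choosing the genes. The median log2 ratio of the measured genes was -0.23 in Acinar and 0.10 in Mix_culture, against 0.01 over all genes in each comparison, with single genes far to either side.

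**Figure D2:**
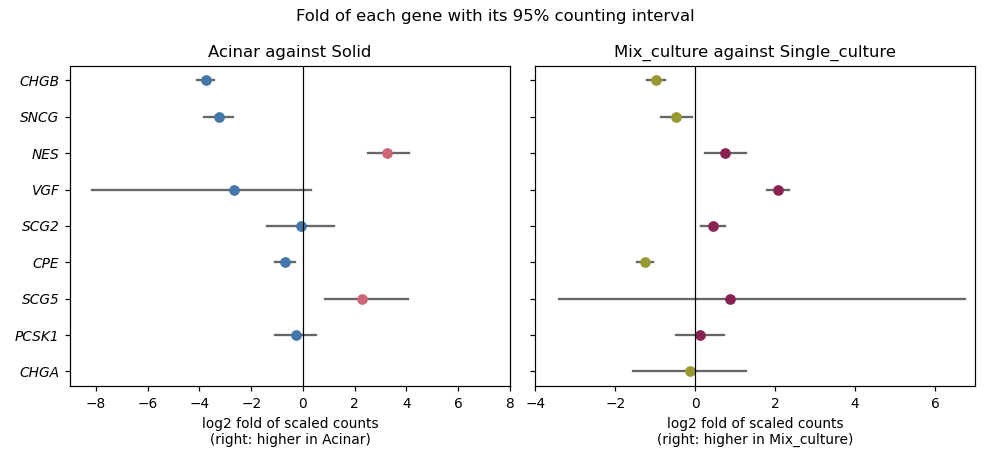
Log2 fold of scaled counts (horizontal axes) for 9 genes in Acinar against Solid (left) and Mix_culture against Single_culture (right); points are plain ratios and lines exact 95% counting intervals, and no point is drawn for CHGA in the tumors because Acinar was at 0. CHGB, SNCG and CPE lay left of 0 in both panels and NES right of 0 in both, while VGF and SCG5 each had 1 wide interval from 1 or 2 fragments in a library.

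Per kilobase of the same transcripts, the leading genes differed among the libraries. In Solid, CHGB (70.3 scaled counts per kilobase) and SNCG (63.2) led, with CPE next at 8.95. In Acinar the levels were closer together, with SNCG at 6.64, CPE at 5.57, CHGB at 5.23 and NES at 3.85. In Single_culture CPE led at 25.5, with CHGB and SNCG both at 16.1, and in Mix_culture VGF led at 20.4, ahead of SNCG at 11.6, CPE at 10.7, CHGB at 8.21 and SCG2 at 7.28.

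The patterns most like those of 4 of the genes were sought among 12137 genes, as the smallest distance over the 4 libraries between log2 levels centred on each gene's mean. With only 4 points such likeness is a description. The nearest gene to CHGB was SNCG (distance 0.60). Both were picked for being lower in Acinar, so their likeness is no independent result. BPIFB1, a secreted airway protein gene, followed (0.82), at 6.29 scaled counts in Solid but only 0.155 in Acinar and 0 in Mix_culture, near the limit of detection. The next was CACNA1B, which encodes the pore of the N-type calcium channel of nerve terminals (1.01). CACNA1B was at 6.57 scaled counts in Solid, 0.310 in Acinar, 2.40 in Single_culture and 1.29 in Mix_culture, and it was also second nearest to SNCG (0.55), after the antisense RNA CCDC183-AS1 (0.46), whose fragments were not whole. The nearest to VGF was EGR1, an immediate early transcription factor gene, at 20.6, 7.29, 101 and 313 scaled counts in the same order of libraries (distance 0.65). DCLK1, encoding a microtubule-associated kinase (0.69), and PHGDH, encoding the first enzyme of serine synthesis (1.09), came next. The nearest to NES were the readthrough symbol SEPT5-GP1BB (0.47, fragments not whole), IGFN1 (0.58) and the chemokine gene CXCL8 (0.65), the last at 49.8, 195, 67.0 and 84.8 scaled counts.

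Other genes of the granule pathway were read from a list. Of 24 further cargo and regulated secretion genes, 19 were measured in the tumors, with none 2-fold or more higher in Acinar and 1 lower, and a median log2 ratio of -0.02. That gene was SYT7, a calcium sensor of exocytosis, on 1 fragment in Acinar against 10 in Solid. In the cultures 18 were measured, 13 below 0 and 5 above, none past 2-fold, with a median of -0.30 against 0.01 over all genes. PAM, the enzyme that amidates peptide hormones, was at 186 scaled counts in Single_culture and 107 in Mix_culture (1.73-fold lower, 1.61 to 1.85), and at 37.3 in Solid and 30.9 in Acinar. PCSK1N, whose product proSAAS inhibits PC1/3, was at 54.7 and 35.6 in the cultures (1.54-fold lower in Mix_culture, 1.36 to 1.74). In the tumors it was at 83.3 in Solid and 82.0 in Acinar, within counting error. SCG3, another granin gene, had 0, 0, 1 and 1 fragments.

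Among 10 other convertases and carboxypeptidases, 8 were measured in each pair, with 1 2-fold or more lower in each and none higher (medians -0.18 in Acinar and -0.15 in Mix_culture). PCSK5 was the one in the tumors, at 1.71 against 5.87 scaled counts (3.44-fold lower in Acinar, 1.74 to 7.42). PCSK6 was the one in the cultures, at 45.8 against 106 (2.31-fold lower in Mix_culture, 2.09 to 2.56), and its 4 levels had the same order of libraries as those of CPE except that Solid stood above Mix_culture. FURIN, the ubiquitous convertase of the constitutive pathway, was at 233 in Solid, 291 in Acinar, 188 in Single_culture and 162 in Mix_culture.

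Of 30 prohormone and neuropeptide genes, the cargo that granules carry, 15 were listed at 0 in all 4 libraries, among them CALCA, GRP, POMC and SST, peptide genes of pulmonary or other neuroendocrine cells. In the tumors 12 were measured, 2 of them 2-fold or more higher in Acinar and 3 lower, with a median of -0.08. ADM (adrenomedullin) was 3.67-fold lower in Acinar (27.6 against 101 scaled counts, 3.11 to 4.35) and NTS (neurotensin) 2.75-fold lower (21.6 against 59.3, 2.27 to 3.36). TAC3, the neurokinin B gene, had 2 fragments in Acinar and 13 in Solid. UCN2, the gene of urocortin 2, was 2.45-fold higher (19.5 against 7.97, 1.78 to 3.41). In the cultures 9 were measured, none past 2-fold, with a median of 0.09.

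The list of 24 neuroendocrine regulators and markers was split, with 9 above 0 and 7 below among 16 measured in the tumors and 7 each way among 14 in the cultures (medians 0.01 and -0.01). In the tumors 1 was 2-fold or more higher in Acinar and 1 lower, and in the cultures none was past 2-fold. REST, the repressor of neuronal genes outside neurons, was at 24.2 scaled counts in Solid, 31.9 in Acinar, 43.1 in Single_culture and 37.0 in Mix_culture. It was 1.32-fold higher in Acinar than in Solid (1.07 to 1.63) and 1.16-fold lower in Mix_culture than in Single_culture (1.02 to 1.33). HES6, a gene downstream of neurogenic factors, was 2.47-fold higher in Acinar (32.1 against 13.01, 1.92 to 3.19), and DDC, the aromatic amino acid decarboxylase gene, had 0 fragments in Acinar and 13 in Solid, with a counting interval of Solid over Acinar from 2.75 upward.

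In the list of 20 other synuclein, intermediate filament and neuronal cytoskeleton genes, 10 were measured in each pair, with medians of 0.36 in Acinar and 0.03 in Mix_culture. VIM, the filament partner of nestin, was at 2135 in Solid, 1943 in Acinar, 886 in Single_culture and 1216 in Mix_culture, with fragments that were not whole, so it did not share the 9.56-fold difference of NES between the tumors.

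**Figure D3:**
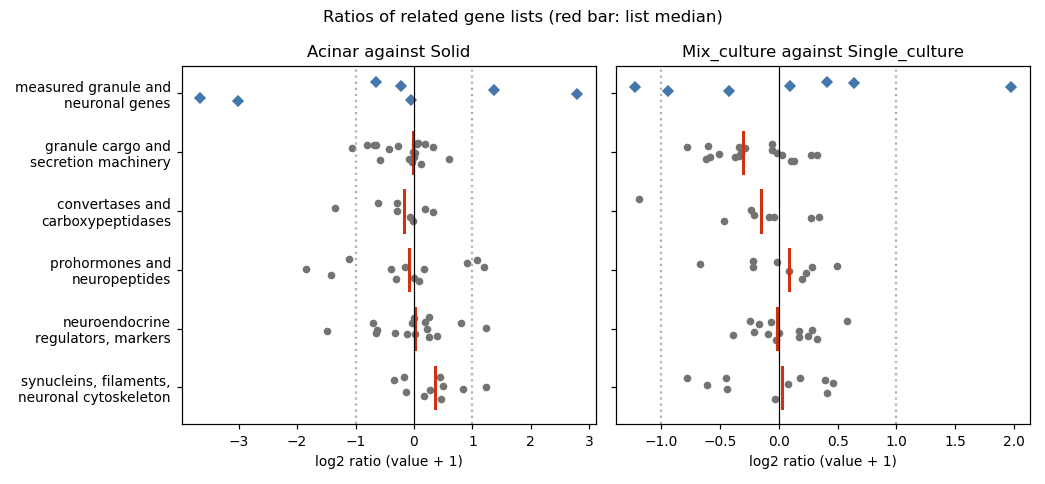
Log2((value + 1)/(value + 1)) ratios (horizontal axes) of the measured members of 5 related gene lists (grey points, red bar the list median) and of the measured granule and neuronal genes (blue diamonds) in Acinar against Solid (left) and Mix_culture against Single_culture (right); dotted lines mark 2-fold, vertical jitter has no meaning and the axes differ in range. The diamonds spread from -3.65 to 2.79 in the tumors, its ends being genes picked for those values, and the medians of the 5 lists lay between -0.18 and 0.36 there and between -0.30 and 0.09 in the cultures.

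Markers of other cell types were read beside these values. Fibroblast markers (15 genes) summed to 313 scaled counts in Solid and 671 in Acinar, mostly from MFAP5 at 225 and 563, while DCN had 2 fragments and 1 fragment and POSTN was at 0 in every library. Of the 7 measured in the tumors, 3 were 2-fold or more higher in Acinar and 1 lower. LUM had 140 fragments in Solid and 357 in Acinar (2.83-fold higher, 2.32 to 3.46), FAP 3 and 14, and COL1A1 231 and 198. In the cultures the sums were 120 and 138, with DCN at 0 in both and LUM at 0 and 1 fragment. Leukocyte markers (6 genes) summed to 235 scaled counts in Solid and 142 in Acinar, and to 48.8 and 42.8 in Single_culture and Mix_culture. Of the 4 measured in the tumors, 3 were below 0 in Acinar, CD14 and LYZ by more than 2-fold. Most of the leukocyte sum in the tumors came from CD68, at 175 scaled counts in Solid and 113 in Acinar. PTPRC had 9 fragments in Solid and 9 in Acinar. CD14 also had 173 fragments in Single_culture and 166 in Mix_culture. Endothelial markers (6 genes) lay between 1.29 and 2.24 in sum. The Schwann cell and glial markers (8 genes) summed to 142 in Solid, 109 in Acinar, 57.9 in Single_culture and 53.2 in Mix_culture, nearly all from ERBB3 and MBP, with S100B at 0 in every library. The part of these markers in the differences of CHGB, SNCG, NES and SCG5 between the tumors was not tested, and values under human symbols do not tell how much mouse host tissue was cut with the tumor cells.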

How the data were processed

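RNA-seq of 4 A549 libraries was analysed, 1 per group, grouped by sample title. The submitters' processing notes list Cuffdiff 2.2.1, TopHat2 2.0.13, SAMtools 1.0 and Bowtie2 2.2.3 with build hg19, and no roles. For annotation and strand, nothing is stated in the labels or headers. The authors deposited 1 signal value per gene and library, not divided by gene length. In each library 90.0% to 91.2% of the non-zero values were multiples of a single step (tolerance 0.05 fragments), so they were read as fragment counts divided by a size factor. The planned log2 ratios were kept and no count model was fitted. Values were divided by 8.94 (scaled counts). Ratios used a pseudocount of 1 and genes at 1 or more in a compared library. Plain folds carry exact conditional binomial (Clopper-Pearson) 95% intervals on fragments, which cover counting error only, because each group has 1 library. No source names molecular identifiers that would mark PCR copies, so the intervals may also be too narrow.

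The 10 genes, 5 related lists and 5 marker lists (149 entries, all matched) were chosen with earlier results of these data known. Named genes were all 10, up to 4 per list past 2-fold, others fixed by name (SCG3, PCSK1N, PAM, FURIN, REST and VIM among them), and the 3 nearest patterns, at 5 scaled counts or more in a library, to CHGB, SNCG, NES and VGF. Some genes that this rule names are not reported here. In the GENCODE 29 annotation, SCG5 shares 11 exon bases with an antisense gene, and none of the other 9 shares exon bases with another gene. Scripts (Python 3.11.15, pandas 2.3.3, scipy 1.17.1) were tested on simulated counts. Pseudocounts, filters, scalings and whole-fragment genes were varied.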

Additional observations from a re-analysis of the deposited data

How the results depend on the processing

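Alternatives were a pseudocount of 0.1 or 5, no filter or one of 5 scaled counts, division by library totals, median-of-ratios size factors, genes of whole fragments only, and deposited values not divided by the constant, which in effect also lowers the pseudocount and the filter. No ratio of a gene past 2-fold changed sign, and 104 of 108 single-gene log2 ratios moved by less than the distance from the plain fold to the end of its counting interval. The other 4, all with a pseudocount of 5, moved further and were smaller: -3.33 for CHGB, -2.35 for SNCG and 1.87 for NES in Acinar, and 1.71 for VGF in Mix_culture. Of the counts over the 10 genes, 43 of 48 stayed. The number 2-fold or more higher in Acinar was 1 (NES without SCG5) with a pseudocount of 5, where SCG5 had a log2 ratio of 0.56, and with a filter of 5, which SCG5 did not reach. The number 2-fold or more lower in Acinar was 4 with undivided values, adding CHGA and VGF. The number with both tumors above both cultures was 1 (SCG5) with a pseudocount of 0.1 and with undivided values.

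Over all genes, 277 were 2-fold or more higher and 357 lower in Acinar, and 92 and 234 in Mix_culture. With a pseudocount of 0.1 these were 478, 692, 192 and 522, with one of 5 they were 114, 101, 33 and 73, and with undivided values 1321, 1970, 604 and 1171. A filter of 5 left 203 lower in Acinar. Both tumors stood above both cultures for 1408 genes and the reverse held for 1197, or 864 and 774 with a pseudocount of 5, and 2181 for the former with undivided values. These shifts follow from the settings themselves. A larger pseudocount makes every log2 ratio smaller in size, and a higher filter leaves out genes. No paired analysis was possible because each group has 1 library. For the same reason there was no replicate to leave out. Depth limits CHGA, SCG5, PCSK2, the tumor values of VGF and SCG2 and the Solid value of NES, all at 22 fragments or fewer.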

Other observations

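Several secretion genes and a filament gene of the fixed lists differed more between tumors and cultures than within either pair. They were chosen after their values were seen. CADPS2, a priming factor of dense-core granules, had 93 fragments in Solid, 45 in Acinar, 7 in Single_culture and 4 in Mix_culture. PTPRN2, a granule membrane protein gene, had 67, 38, 11 and 14 fragments in the same order. CPD, encoding a carboxypeptidase of the trans-Golgi network related to CPE, was at 152, 123, 542 and 393 scaled counts. INA, the gene of the neuronal filament α-internexin, was at 8.25, 9.46, 32.8 and 21.1 scaled counts. The tumor cells and the cultured cells were also prepared in different ways, which cannot be told apart from the growth setting.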
